A study of Mus musculus with 24 samples.

Results

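DNA methylation was examined at the genes that write, erase and read it, in the dentate gyrus of female C57BL/6JRj mice. The genes were the writers Dnmt1, Dnmt3a and Dnmt3b with their partner Uhrf1, the erasers Tet1, Tet2 and Tet3, and the readers Mbd1 and Mbd2. Every cytosine of the reduced representation bisulfite sequencing (RRBS) table that lay inside 1 of these 9 genes, or within 2000 bases of one, was taken by position alone, which gave 571 of the 762182 cytosines. The mice formed 3 groups, Young STD (5 mice, 1.5 months old), Aged STD (7 mice, 14 months old) and Aged ENR (7 mice, also 14 months old). STD is standard housing, and ENR is environmental enrichment, a larger enclosure with toys in which the Aged ENR mice had lived since they were young. Each library came from the micro-dissected dentate gyrus of a single mouse, and no transgene or drug is described for any group. The questions were how the methylation of these genes is laid out, and whether it differed with age or with housing.

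In mammals, methyl groups are added mainly to cytosines followed by guanine (CpGs). Dnmt3a and Dnmt3b place new methyl groups, Dnmt1 copies the pattern onto the new strand after replication, and Uhrf1 binds hemimethylated CpGs and brings Dnmt1 to them. The Tet enzymes oxidise 5-methylcytosine to 5-hydroxymethylcytosine and further, which begins its removal, and Mbd1 and Mbd2 bind methylated CpGs and recruit repressors. Neurons are known for high levels of 5-hydroxymethylcytosine, and bisulfite sequencing counts it together with 5-methylcytosine. CpG-rich promoters (CpG islands) are usually free of methylation, whereas CpGs inside transcribed genes are usually methylated.

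Between 489813 and 725467 cytosines were measured per mouse, and between 337 and 552 of the 571 cytosines at the 9 genes. The number of reads behind each percentage is unknown, so no interval could be given for a single value. At the 82 CpGs of these genes measured on both strands, values of the 2 strands in 1 mouse differed with an SD of 13.6 points over 945 pairs, and with an SD of 32.7 points over the 91 pairs from the 8 CpGs with a mean between 10 and 90%. Single values were thus coarse where methylation was intermediate. Libraries also differed in which cytosines they covered. The composition index of a library, the mean Young STD level of the cytosines it measured, lay between 28.1 and 38.0% in 15 libraries. It was under 25% in the other 4, Aged STD mice 3, 4 and 6 (19.6, 20.8 and 19.5%) and Aged ENR mouse 4 (23.4%). Over the cytosines measured in all mice these 4 also had the lowest means, 16.3 to 17.7%, against 18.7 to 21.8% in the others. Many of the counts and differences are also given without these 4 libraries. Leaving them out removes aged mice of low methylation as well as unlike coverage, and the 2 cannot be told apart. The library numbers fell into 2 series, 27 and 37, each holding mice of all 3 groups. The table holds no expression values, so the dentate gyrus could not be checked by its marker genes, and in bulk tissue a different mix of cells and a different level within cells cannot be told apart.

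Stretches from 5 sites carry the patterns described in the following paragraphs. They are from GRCm38.p6 (the mm10 build), read 5′ to 3′ on the strand of the gene, which was the minus strand in each case, with the CpGs that were measured in capitals. The stretch of Dnmt1 (chr9:20958777-20958898, an intron near the upstream start) is shown because the values of the aged groups did not overlap there. The stretch of Tet2 (chr3:133534149-133534284, an intron) is shown for its intermediate level. The first stretch of Tet1 (chr10:62879587-62879882, a coding exon) was CpG-rich and methylated, and the second (chr10:62886149-62886448, an intron) was CpG-rich and nearly unmethylated. The stretch of Tet3 (chr6:83456168-83456240, an intron next to a start) stands for the unmethylated islands.
Dnmt1 intron: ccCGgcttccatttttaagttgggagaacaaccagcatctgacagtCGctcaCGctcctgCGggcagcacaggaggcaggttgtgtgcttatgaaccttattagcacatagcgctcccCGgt
Tet2 intron: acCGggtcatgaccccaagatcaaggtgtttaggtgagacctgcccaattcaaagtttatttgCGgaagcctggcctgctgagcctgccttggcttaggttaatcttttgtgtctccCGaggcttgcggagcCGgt
Tet1 coding exon: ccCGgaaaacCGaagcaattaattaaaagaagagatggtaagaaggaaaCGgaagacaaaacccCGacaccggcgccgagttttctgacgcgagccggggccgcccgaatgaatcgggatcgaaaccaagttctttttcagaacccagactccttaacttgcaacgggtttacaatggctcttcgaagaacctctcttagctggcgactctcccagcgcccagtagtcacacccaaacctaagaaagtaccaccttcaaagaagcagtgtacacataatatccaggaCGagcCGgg
Tet1 intron: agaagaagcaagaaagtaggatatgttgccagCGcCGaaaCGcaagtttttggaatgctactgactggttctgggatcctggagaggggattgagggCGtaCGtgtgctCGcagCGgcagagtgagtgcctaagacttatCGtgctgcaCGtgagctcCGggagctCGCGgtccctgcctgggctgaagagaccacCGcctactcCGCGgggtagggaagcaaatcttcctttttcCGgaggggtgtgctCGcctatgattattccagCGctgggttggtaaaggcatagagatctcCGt
Tet3 intron: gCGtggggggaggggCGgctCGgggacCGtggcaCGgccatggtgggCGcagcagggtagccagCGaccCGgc

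In the Dnmt1 stretch, 5 of 6 CpGs were measured, and the mean level over them was 90.1% in Young STD, 71.7% in Aged STD and 86.6% in Aged ENR. In the Tet2 stretch, 4 of 5 CpGs were measured, and single cytosines ran from 13.3 to 81.0%. In the Tet1 coding exon, 6 of 20 CpGs were measured, with levels from 92.1 to 100%. All 19 CpGs of the Tet1 intron were measured, with a mean of 1.44% and a highest level of 10.8%, so that CpG-rich sequence in this gene was found at both ends of the scale. The 8 CpGs of the Tet3 intron averaged 0.389%.

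Most cytosines at the 9 genes carried almost no methylation. The level of a cytosine, taken as the mean of its 3 group means, was below 10% at 424 of 571 cytosines (74.3%, against 57.7% of all CpG cytosines in the table) and above 90% at 47 (8.23%, against 14.8%). At 183 cytosines no mouse had a methylated read. By position, 419 lay in promoters, here within 1000 bases of any of the 74 annotated transcription starts of these genes, 150 in the rest of the gene (the gene body) and 2 outside. In all, 241 lay in exons, 322 in introns and 8 outside the genes.

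In promoters, 389 of 419 cytosines (92.8%) were below 10%, with a median level of 0.515%; over all promoters the share was 87.3%. In bodies, 35 of 150 cytosines (23.3%) were below 10% and 38 were above 90%, with a median of 46.3%; over all bodies the share below 10% was 25.7% and the median 50.7%. The split followed the density of CpGs as well as position. Of the 25 body cytosines in CpG-dense sequence (observed over expected CpG of at least 0.6 in the 150 bases to each side), 16 (64%) were below 10%, against 19 of 125 (15.2%) in sparse sequence. The same shares over all bodies were 59.0 and 17.0%. In promoters, 96.5% of the 346 cytosines in dense sequence and 75.3% of the 73 in sparse sequence were below 10%, against 95.2 and 61.3% over all promoters.

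**Figure D1:**
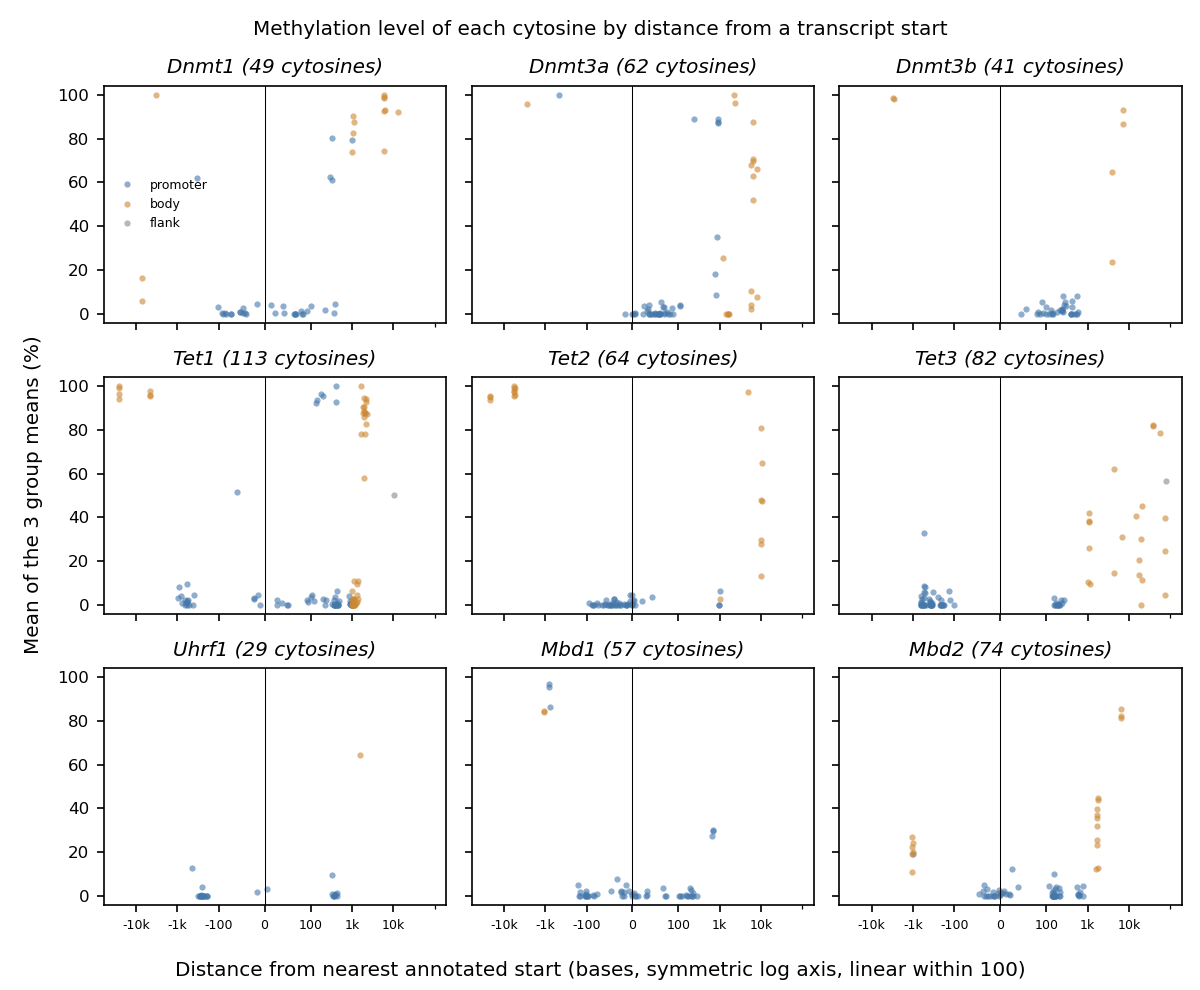
Level of each cytosine at the 9 genes (y axis, percent methylated, mean of the 3 group means) against its distance from the nearest annotated start of its gene (x axis, bases), with 1 panel per gene and colours for promoter, body and flank. The x axis is a symmetric log axis, linear within 100 bases. Of the 419 promoter cytosines 389 lie below 10%, and the cytosines farther away spread over the whole scale.

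**Figure D2:**
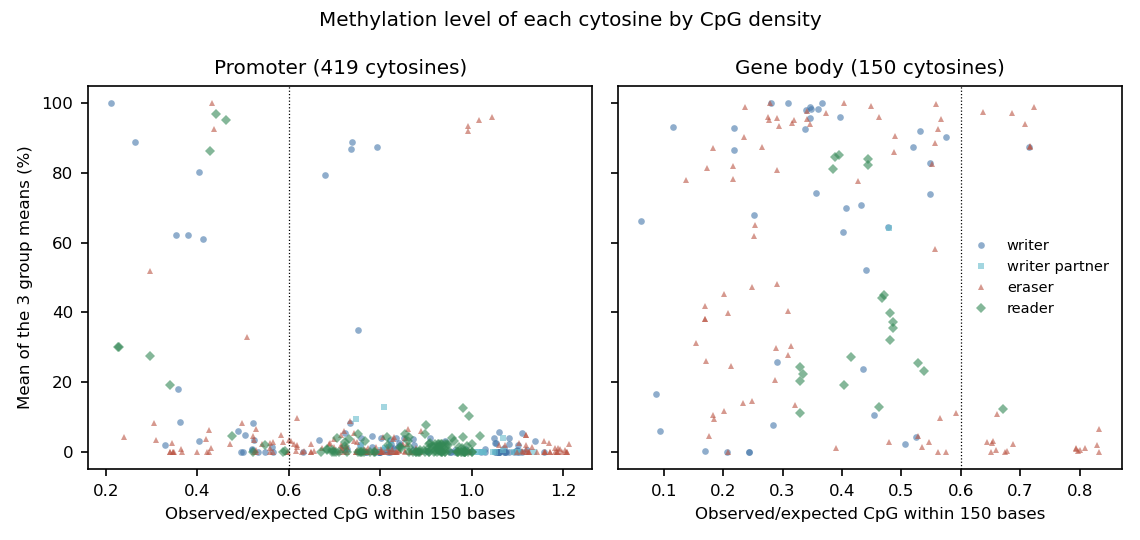
Level of each cytosine at the 9 genes (y axis, percent methylated) against the observed over expected CpG ratio of the 150 bases to each side (x axis), with promoter and body cytosines in separate panels and colours for writers, erasers and readers. Dense sequence, at a ratio of 0.6 or more, is mostly below 10%, and 8 dense cytosines, 4 of them in the Tet1 coding exon, lie above 90%.

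Only 30 promoter cytosines (7.16%, against 12.7% over all promoters) had a level of 10% or more, and they were grouped at a few starts. In Tet1, 6 cytosines between 134 and 425 bases downstream of the start of transcript Tet1-201 were at 92.1 to 100%; they are those of the coding exon printed above. In Dnmt3a, 5 cytosines downstream of the Dnmt3a-210 start were at 34.9 to 89.1%. In Dnmt1, 4 cytosines at the Dnmt1-204 start, at the 3′ end of the gene, were at 61.2 to 80.3%, and 1 at the upstream start Dnmt1-202 was at 79.3%. In Mbd1, 3 cytosines upstream of the Mbd1-204 start were at 86.4 to 96.9% and 3 downstream of the Mbd1-202 start at 27.5 to 30.1%. The other 8 were single cytosines or pairs in Dnmt3a, Mbd2, Tet1, Tet3 and Uhrf1. Dnmt3b and Tet2 had none.

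Neighbouring cytosines were then joined into blocks, runs with gaps of at most 300 bases. The 9 genes held 73 blocks, of which 39 had at least 3 cytosines; 19 of these 39 were below 10%, 13 between 10 and 90% and 7 above 90%. Every gene had an unmethylated, CpG-rich block within 1000 bases of an annotated start. The levels of these blocks were 1.19% at Dnmt1 (30 cytosines), 1.33 and 0.834% at Dnmt3a (11 and 23), 1.86% at Dnmt3b (35), 1.48% at Tet1 (34), 0.856% at Tet2 (42), 1.45% at Tet3 (30), 1.3% at Uhrf1 (28), 1.09% at Mbd1 (49) and 1.63% at Mbd2 (46). The Dnmt3b block also overlaps the gene Dnmt3bos, so its values belong to both. The short form of Dnmt3a, which lacks the long amino terminus, is made from an internal start, and the single cytosine measured near the internal start Dnmt3a-203 was at 3.08%. The 7 methylated blocks above 90% lay in Tet1 (3), Tet2 (2), Dnmt1 (1) and Mbd1 (1).

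Promoter and body were compared within each mouse, to ask whether the gap between them holds in every animal. All 7 genes with at least 5 cytosines in both regions were lower in the promoter in every mouse that had both values, 19 of 19 mice for 6 genes and 13 of 13 for Dnmt3b. The gap was widest in Dnmt3b (-77.3 points, SE 3.13), Tet2 (-71.7, SE 1.43) and Dnmt1 (-68.3, SE 1.43). It was narrower in Mbd2 (-34.1, SE 3.04), Tet1 (-33.3, SE 0.688), Tet3 (-31.6, SE 2.15) and Dnmt3a (-30.0, SE 1.77), beside a median of -43.6 points over all genes. All 7 passed the test (limma, adjusted p from 3.59e-20 to 1.36e-09), which 87.4% of the 6884 genes tested did in the same direction. The writers and erasers were thus on both sides of the median of all genes. The gap varied between mice, from 3.84 to 37.7 points in Dnmt3a, from 5.35 to 70.7 in Mbd2 and from 8.84 to 47.6 in Tet3, but only from 30.5 to 37.6 in Tet1. The smallest gap was that of Aged STD mouse 6 in Dnmt3a and of Aged STD mouse 4 in Mbd2 and Tet3, both of low composition index. The bodies of Uhrf1 (1 cytosine, at 64.3%) and Mbd1 (2 cytosines, at 84.3% on average) were too small for this comparison.

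**Figure D3:**
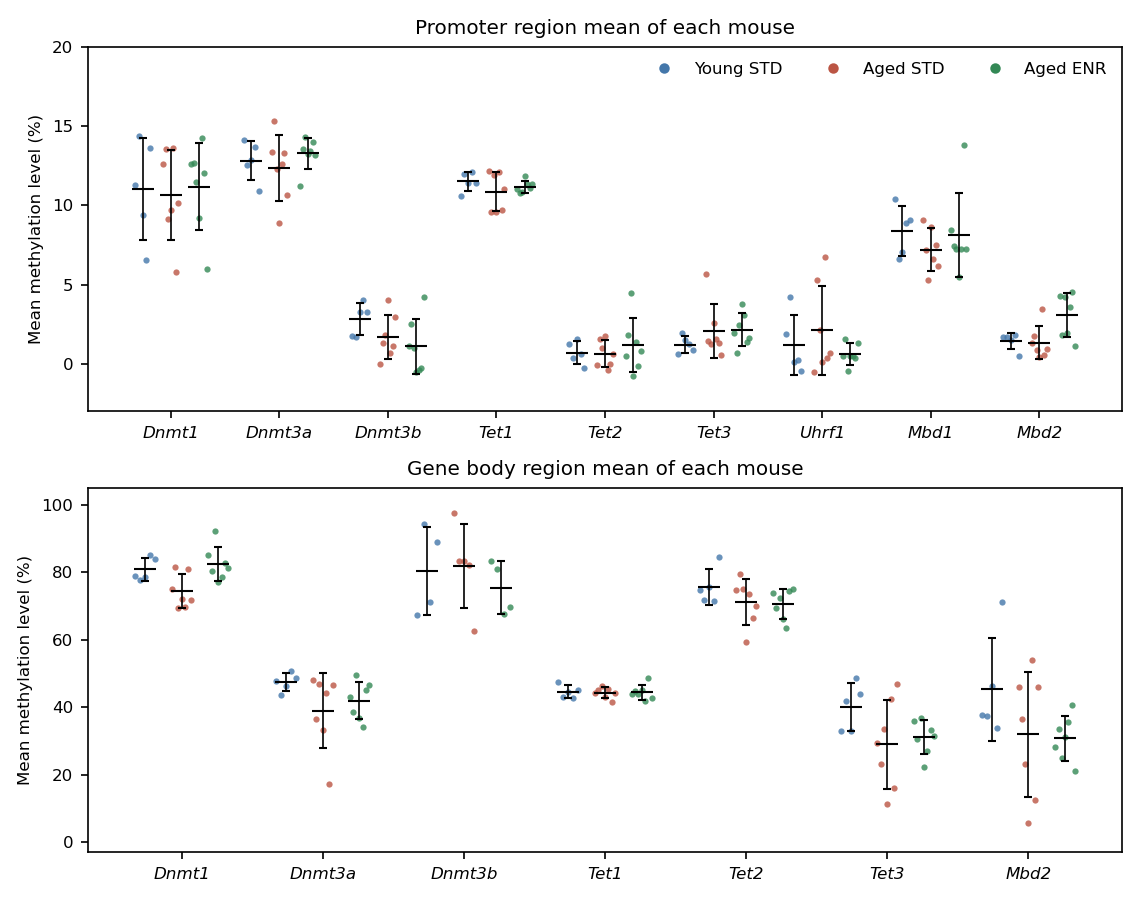
Mean methylation of the promoter and body of each gene (y axis, percent) in each mouse (points) with the mean and SD of Young STD, Aged STD and Aged ENR. Promoter points lie below body points in every mouse and gene with both, and the groups overlap in every region.

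Age and housing were compared in 3 ways, for single cytosines, for promoter and body means, and for blocks. No cytosine of the 9 genes was called at an adjusted p under 0.05 with a difference over 25 points in any comparison (limma over the whole table). Tested were 333, 341 and 324 of the 571 for age, housing and Aged ENR against Young STD, and the others had the same value in all mice compared. Of all cytosines 0% were called as well. The smallest adjusted p at these genes was 0.76 for age, 0.769 for housing and 0.776 for Aged ENR against Young STD. At an unadjusted p under 0.05 there were 14 cytosines for age (4.2%, against 4.42% of all), 5 for housing (1.47%, against 2.25%) and 12 for Aged ENR against Young STD (3.7%, against 3.95%).

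By size alone, 25 of 333 cytosines (7.51%, against 9.35% of all) differed by over 25 points with age, 22 lower and 3 higher in Aged STD; over all cytosines 7.19% were lower and 2.17% higher by as much. Body cytosines made up most of them, 19 of 131 (14.5%, against 14% of all body cytosines), and promoters held 5 of 200 (2.5%, against 4.24%), all lower in Aged STD. Of the 25 cytosines Tet3 had the most, 8, and Uhrf1 had none. Without the 4 libraries of low composition index, 18 of 276 (6.52%, against 9.65% of all) differed by as much with age, 10 lower and 8 higher in Aged STD. With housing, 21 of 341 (6.16%, against 7.15%) differed by as much, 13 higher and 8 lower in Aged ENR, against 4.53 and 2.62% of all cytosines. Between Aged ENR and Young STD, 16 of 324 (4.94%, against 7.6%) did, 13 lower and 3 higher in Aged ENR, against 5.21 and 2.39%. Without the same libraries these counts were 21 of 289 for housing (7.27%, against 9.18% of all), 10 lower and 11 higher in Aged ENR, and 22 of 315 for Aged ENR against Young STD (6.98%, against 7.78%), 16 lower and 6 higher in Aged ENR. Aged STD mice enter both the first and the second comparison, and Young STD mice the first and the last. Among the cytosines measured in all mice compared, the groups overlapped at each of the 71, 82 and 72, as they did at all but 0.432, 0.0162 and 0.323% of such cytosines in the table.

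In the region means, none of the 9 promoters and 7 bodies was called in any comparison (0% of all regions were), and the groups overlapped in every region. The promoter differences lay between -1.71 and 1.74 points, and no 95% interval reached beyond -4.32 or 4.02 points. As plain means, in which the cytosines a mouse happened to cover were not centred, promoters differed more, with age by -5.19 points in Tet1, -4.98 in Dnmt3a and -3.29 in Dnmt1. Body differences were wider. With age, 6 of 7 bodies were lower in Aged STD, with a median of -6.52 points; over all bodies 74.1% were lower, with a median of -3.17 points. With housing, 3 of 7 were lower in Aged ENR (median 0.0718 points, against 1.13 over all bodies and 35.7% lower). Between Aged ENR and Young STD, 6 of 7 were lower in Aged ENR (median -4.96 points, against -1.65 and 66.9% lower). These counts depended on the 4 libraries of low composition index. Without them, 4 of 7 bodies were lower with age (median -1.17 points, against -1.16 over all bodies and 61.8% lower). With housing 6 of 7 were then lower in Aged ENR (median -3.01 points, against -0.125 and 51.7% lower), as Dnmt3a, Tet1 and Tet3 changed sign. Between Aged ENR and Young STD 6 of 7 were lower (median -4.58 points, against -1.23 and 63.3% lower). At an unadjusted p under 0.05 there were 1, 2 and 3 of the 16 regions, against 8.98, 4.61 and 7.11% of all regions, and without those libraries 0, 2 and 2, against 5.82, 4.23 and 6.54%.

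**Figure D4:**
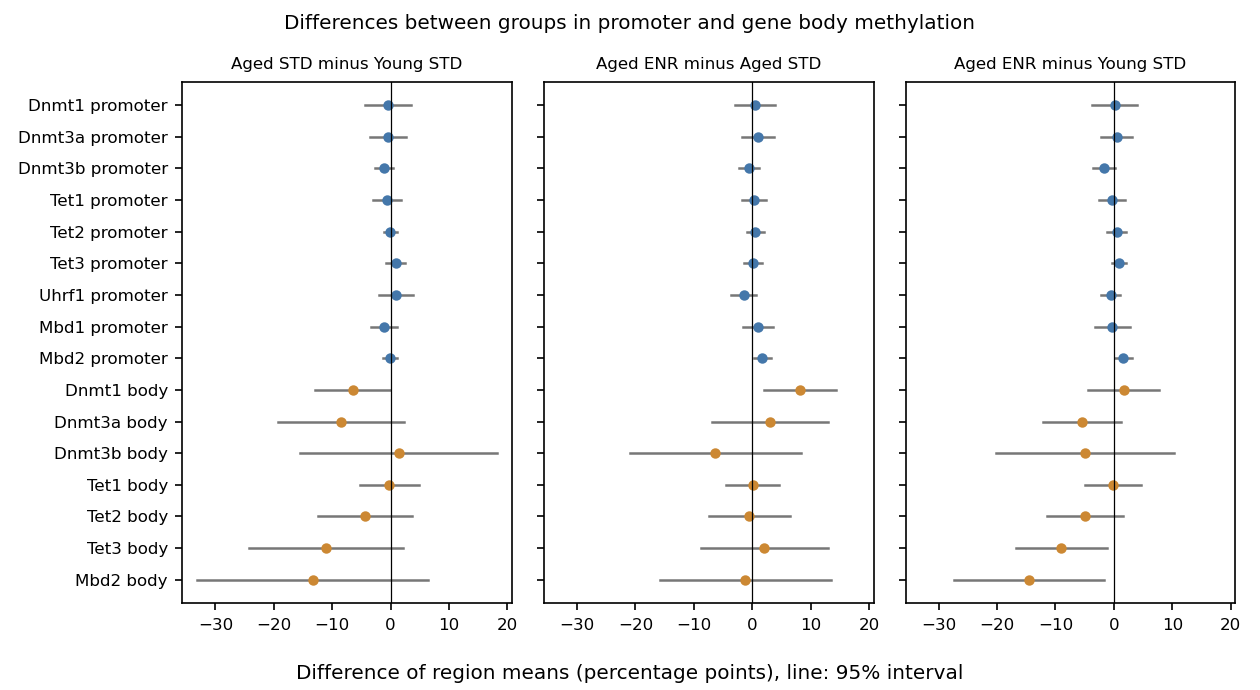
Difference between groups in the mean methylation of each promoter and body (x axis, points of percent methylated) for age, housing and Aged ENR against Young STD, with 95% intervals as bars. Promoter differences lie between -1.71 and 1.74 points, and body differences between -14.5 and 8.17 points.

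In the blocks, 0 of 38, 39 and 39 tested were called for age, housing and Aged ENR against Young STD (0.00449, 0 and 0.00148% of all blocks were). At an unadjusted p under 0.05 there were 2, 3 and 3, against 7.28, 4.12 and 6.47% of all blocks. The groups did not overlap in 2 of 39 blocks for age, against 2.6% of all blocks with at least 3 mice in each group, in 1 of 39 for housing, against 1.12%, and in 0 of 39 for Aged ENR against Young STD, against 2.08%. Counts this small, of at most 3 blocks, cannot set these genes apart from all blocks. The blocks described for single genes in the next paragraphs are therefore given for their values. Blocks were added after the values of single cytosines had been seen.

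Dnmt1, the maintenance methyltransferase, had 49 cytosines (gene ENSMUSG00000004099.16, chr9:20907209-20959888). The mean of its promoter was 11.05% ± 3.203 in the Young STD group, 10.7% ± 2.83 in Aged STD and 11.2% ± 2.74 in Aged ENR (SD, n = 5, 7 and 7). This mean joined unlike sites near different starts, with the island of 30 cytosines at 1.19% and the block at the 3′ start at 67.9%. In the body, the 5 Young STD mice were at 79.0, 77.7, 78.7, 85.1 and 83.8%. Aged STD mice ran from 69.6 to 81.5% with a median of 72.0%, and Aged ENR mice from 77.1 to 92.1% with a median of 81.4%. The Aged STD mice were thus the lowest on the whole, with overlap on both sides. The difference of Aged STD from Young STD was -6.52 points (SE 2.94, limma adjusted p = 0.546) and that of Aged ENR from Aged STD 8.17 points (SE 2.92, adjusted p = 0.947). Neither passed the test. Aged ENR and Young STD differed by 1.65 points (95% interval -4.37 to 7.67). Without the 4 libraries of low composition index these differences were -6.41, 8.96 and 2.55 points, and within library series 27 and 37 they were -3.95 and -10.3 for age and 9.17 and 6.84 for housing. With promoters drawn within 2000 bases the age difference was -3.66 points (SE 4.37), and with promoters within 500 bases -9.32 points (SE 3.06).

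Part of the body mean of Dnmt1 came from the intron stretch printed above, a block of 5 cytosines between 992 and 1109 bases downstream of the start of Dnmt1-202, the upstream start. The block straddles the edge of the promoter class, with 1 cytosine in the promoter and the others in the body. The Young STD mice with a value were at 96.1, 87.1, 84.4 and 89.6%, the Aged STD mice at 74.1, 75.1, 54.1 and 70.3%, and the Aged ENR mice at 82.6, 85, 100, 80.5 and 90.8%. All 4 Aged STD values were below all Young STD and Aged ENR values, while the latter groups overlapped. The age difference was -20.9 points (SE 5.99, limma adjusted p = 0.503) and the housing difference 19.4 points (SE 6.16, adjusted p = 0.947), and neither passed the test. In all, 6 mice had no value, among them Aged STD mice 3, 4 and 5. Without the libraries of low composition index, of which only Aged STD mouse 6 (54.1%) and Aged ENR mouse 4 (80.5%) had a value, the differences were -16.1 and 16.5 points. In library series 27 alone they were -14.6 and 12.5 points, and series 37 had too few values. Aged ENR and Young STD differed by -1.49 points (SE 4.48).

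**Figure D5:**
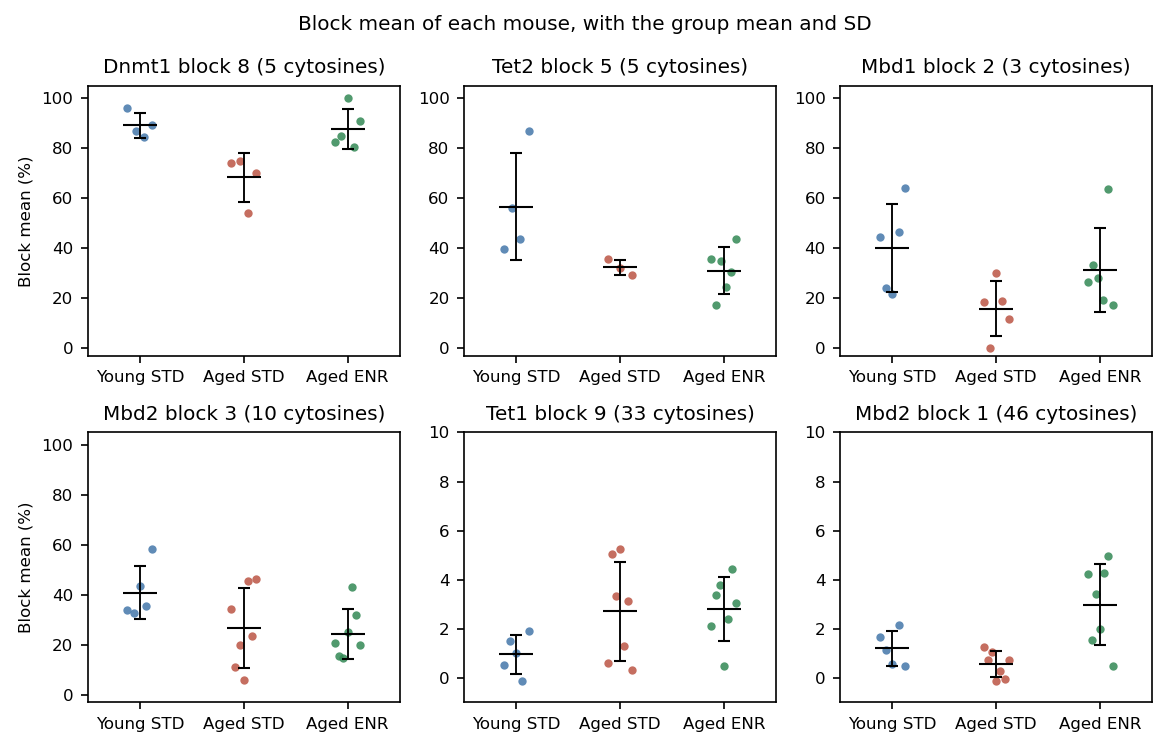
Mean methylation (y axis, percent) of each mouse (points) in 6 blocks, with the group mean and SD as bars, for Young STD, Aged STD and Aged ENR. The Aged STD points of the Dnmt1 block lie below all others, and those of the Tet2 block below all Young STD points; block 9 of Tet1 and block 1 of Mbd2, the intron block and the island described in the text, are drawn on a scale up to 10%.

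Dnmt3a, a de novo methyltransferase with high expression in the postnatal brain, had 62 cytosines (gene ENSMUSG00000020661.15, chr12:3806007-3914443). Its promoter mean was 12.8% ± 1.24 in Young STD, 12.4% ± 2.07 in Aged STD and 13.3% ± 0.99 in Aged ENR (SD, n = 5, 7 and 7). Its body was at 47.8, 43.7, 46.5, 50.8 and 48.6% in the Young STD mice. The Aged STD mice ran from 17.2 to 48.1% with a median of 44.2%, and the Aged ENR mice from 34.3 to 49.6% with a median of 43.2%. The lowest Aged STD values were those of mouse 6 (17.2%) and mouse 4 (33.4%), both of low composition index. The age difference of -8.51 points (SE 5.02, limma adjusted p = 0.628) was -3.65 points without those libraries and -12.8 points as plain means. In the body, a block of 4 intron cytosines between 1415 and 1644 bases downstream of the Dnmt3a-218 start was at 0.0138%, and 5 cytosines in the last exon were at 68.7%.

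The cytosine of Dnmt3a with the smallest p for age was at chr12:3908020, in an exon 1204 bases downstream of the Dnmt3a-210 start. It was at 100, 52.9, 43.8 and 80% in the 4 Young STD mice with a value. Aged STD mice had 0% in 4 of 5 and 38.5% in the other, and all 5 Aged ENR mice with a value had 0%. Every aged mouse with a value was thus below every Young STD mouse with a value. The differences from Young STD were -61.5 points in Aged STD (SE 18.5, limma adjusted p = 0.76) and -69.2 points in Aged ENR (SE 15.5, adjusted p = 0.776), neither past the threshold. It was a single cytosine with missing values in each group, and no neighbour within 300 bases was measured.

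Dnmt3b, the other de novo methyltransferase, had 41 cytosines (gene ENSMUSG00000027478.15, chr2:153649450-153687730), 35 of them in the island at its start. Its promoter was at 2.81% ± 1.02 in Young STD, 1.70% ± 1.39 in Aged STD and 1.10% ± 1.74 in Aged ENR (SD, n = 5, 7 and 7), and Aged ENR differed from Young STD by -1.71 points (SE 0.838, limma adjusted p = 0.716). Its body rested on 6 cytosines and was measured in 4, 5 and 4 mice, at 80.4% ± 13.1, 81.8% ± 12.5 and 75.5% ± 7.91. The 3 groups were not distinguishable at this spread. Uhrf1, which guides Dnmt1 to hemimethylated CpGs, had 29 cytosines (gene ENSMUSG00000001228.14, chr17:56303321-56323486), of which 16 were at 0 in every mouse. Its promoter was at 1.199% ± 1.90, 2.11% ± 2.82 and 0.624% ± 0.670 in Young STD, Aged STD and Aged ENR, and its largest difference was -1.49 points (SE 1.02), between Aged ENR and Aged STD.

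Tet1 had 113 cytosines (gene ENSMUSG00000047146.17, chr10:62804570-62908996), the most of the 9 genes, and a centred body mean that varied little between mice. Its body was at 44.6% ± 1.91 in Young STD, 44.4% ± 1.59 in Aged STD and 44.4% ± 2.18 in Aged ENR (SD, n = 5, 7 and 7), and the 19 mice lay between 41.7 and 48.6%. This mean joined an unmethylated and a methylated part. The block of 33 intron cytosines downstream of the island, of which 25 lay in the body and 8 in the promoter class, was at 2.19%, whereas the other body blocks were at 80.8 to 97.3%. The age difference of the body was -0.23 points with a 95% interval of -5.30 to 4.84, and the housing difference 0.0718 points with an interval of -4.46 to 4.603. These values rested on the centring. As plain means the body differed by -11.9 points with age (SE 5.82, limma adjusted p = 0.618) and 3.84 with housing, and over the cytosines measured in all mice by -5.04 and 3.06 points. The promoter was at 11.5% ± 0.617, 10.9% ± 1.23 and 11.2% ± 0.377. It joined, among others, the island at 1.48% and the methylated coding exon at 94.9%.

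This intron block downstream of the Tet1 island was at 0.51, 1.49, 1.02, -0.114 and 1.93% in the Young STD mice, on the centred scale on which a mean can fall slightly below 0. Aged STD mice ran from 0.328 to 5.26% with a median of 3.14%, and Aged ENR mice from 0.473 to 4.43% with a median of 3.07%. Of the 7 Aged ENR mice 6 were above every Young STD mouse, as were 4 of 7 Aged STD mice. Aged ENR differed from Young STD by 1.85 points (SE 0.758, limma adjusted p = 0.726) and Aged STD from Young STD by 1.76 points (SE 0.971, adjusted p = 0.742), and neither passed the test. Without the libraries of low composition index these were 2.24 and 0.857 points. The cytosine of Tet1 with the smallest p for housing, chr10:62886212 in this block, was at 0% in all 7 Aged STD mice and in the 4 Young STD mice with a value, and at 0, 0, 17.0, 0, 23.7, 13.8 and 7.32% in Aged ENR (difference 8.83 points, SE 3.49, adjusted p = 0.769). The housing difference of the whole block was 0.0909 points (SE 0.942).

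Tet2 had 64 cytosines (gene ENSMUSG00000040943.12, chr3:133463679-133545139) and an almost unmethylated promoter, at 0.697% ± 0.731 in Young STD, 0.639% ± 0.840 in Aged STD and 1.16% ± 1.71 in Aged ENR (SD, n = 5, 7 and 7). Its body was at 75.6% ± 5.34, 71.2% ± 6.68 and 70.7% ± 4.44. In its body, a block of 7 exonic cytosines was almost fully methylated, at 97.8%, and an intron block of 3 was at 94.7%. Another intron block, at the edge of the promoter class, was at 2.24%. The intron stretch printed above was intermediate. In that stretch the Young STD mice with a value were at 39.7, 56.4, 43.8 and 87.1%, the 3 Aged STD mice at 35.6, 32.1 and 29.5%, and the 6 Aged ENR mice between 17.3 and 43.9% with a median of 32.6%. All 3 Aged STD values were below all Young STD values, and 5 of 6 Aged ENR values were. The Aged STD values of 32.1 and 29.5% were those of mice 3 and 6, both of low composition index. The age difference was -24.3 points (SE 14.5, limma adjusted p = 0.761) and the difference of Aged ENR from Young STD -25.6 points (SE 10.9, adjusted p = 0.753). Young STD mouse 5 was far above the other 3 Young STD mice, which lay between 39.7 and 56.4%. Without this mouse the differences were -14.2 (SE 12.3) and -15.4 points (SE 9.34). With every Young STD mouse kept but the libraries of low composition index left out, the second was -24.3 points, and the first could not be fitted.

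Tet3, a Tet enzyme expressed in neurons, had 82 cytosines (gene ENSMUSG00000034832.15, chr6:83362373-83459084), 32 of them at 0 in every mouse and none above 90%. Its promoter was at 1.22% ± 0.516 in Young STD, 2.06% ± 1.69 in Aged STD and 2.15% ± 1.04 in Aged ENR (SD, n = 5, 7 and 7). A block of 15 promoter cytosines at 3.96% also overlaps the gene B230319C09Rik, so its reads belong to both. The body was spread over many small sites, most of them intermediate, and its mean was at 32.9, 41.8, 32.9, 48.8 and 44.0% in Young STD. Aged STD mice ran from 11.4 to 47.0% with a median of 29.3%, and Aged ENR mice from 22.5 to 36.97% with a median of 31.5%. The lowest Aged STD values, 11.4 and 16.1%, belonged to mice 4 and 6, of low composition index. The age difference was -11.1 points (SE 6.09, limma adjusted p = 0.608) and was -4.55 points without those libraries. Aged ENR differed from Young STD by -9.00 points (SE 3.599, adjusted p = 0.653), by -7.56 points without those libraries, and by -4.385 and -15.9 points within series 27 and 37. With promoters drawn within 500 bases, so that the body took in more cytosines, the body differences were -4.94 points with age and -3.08 points (SE 2.14) between Aged ENR and Young STD. At chr6:83427191, an intron cytosine, Aged STD mice with a value were all at 0% (5 mice), and Aged ENR mice were at 100, 82.4, 0, 55.6 and 30.0%. Young STD mice were at 83.3, 100 and 20.7% there. The housing difference was 53.6 points (SE 19.2, adjusted p = 0.769).

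Mbd1, a methyl-CpG-binding repressor, had 57 cytosines (gene ENSMUSG00000024561.10, chr18:74267605-74282732), nearly all in its promoter class. The island block of 49 was at 1.09%, and the promoter mean was at 8.397% ± 1.57 in Young STD, 7.22% ± 1.34 in Aged STD and 8.15% ± 2.64 in Aged ENR (SD, n = 5, 7 and 7). Downstream of the island, a block of 3 intron cytosines was intermediate. It was at 44.6, 24.1, 21.6, 46.7 and 64.3% in Young STD and at 18.5, 0, 30.0, 18.9 and 11.8% in the Aged STD mice with a value, of which 4 lay below every Young STD mouse. Aged ENR mice ran from 17.4 to 63.7% with a median of 27.2%. The age difference was -24.4 points (SE 9.52, limma adjusted p = 0.628), and -20.2 points without the libraries of low composition index. Within series 27 and 37 it was -20.8 and -35.3 points. A methylated block of 3 upstream of the Mbd1-204 start was at 92.5% ± 6.29, 97.8% ± 4.81 and 87.4% ± 9.54 in Young STD, Aged STD and Aged ENR (SD, n = 4, 5 and 5), with a housing difference of -10.4 points (SE 4.51, adjusted p = 0.947). One of its cytosines, chr18:74272755, was the Mbd1 cytosine with the smallest p for housing (-31.9 points, SE 12.5, adjusted p = 0.769).

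Mbd2, a methyl-CpG-binding subunit of the NuRD complex, had 74 cytosines (gene ENSMUSG00000024513.16, chr18:70568189-70626131). Its promoter had the largest promoter difference with housing in the centred means. As plain means it differed by 1.67 points, less than Dnmt1 (3.53), Tet1 (2.89) and Uhrf1 (-1.77). In the centred means, Young STD mice were at 1.67, 1.68, 1.52, 1.80 and 0.529%. Aged STD mice ran from 0.461 to 3.44% with a median of 0.959%, and Aged ENR mice from 1.12 to 4.53% with a median of 3.61%. Aged ENR thus had the highest mean, at a level that stayed under 5% in every mouse. It differed from Aged STD by 1.74 points (SE 0.665, limma adjusted p = 0.947) and from Young STD by 1.64 points (SE 0.684, adjusted p = 0.672), and neither passed the test. Without the libraries of low composition index these were 1.40 and 1.82 points, and the housing difference was 1.97 and 1.44 points within series 27 and 37. Over the cytosines measured in all mice the 2 differences were smaller, 0.685 points (SE 0.829) and 1.02 points (SE 0.927). With promoters drawn within 2000 bases, which takes in cytosines counted as body here, both turned sign, to -0.81 and -4.96 points. In the island block of 46 cytosines alone, 6 of 7 Aged ENR mice were above every Aged STD mouse, with means of 2.99% ± 1.66 and 0.556% ± 0.529 and a difference of 2.43 points (SE 0.724, adjusted p = 0.947).

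The body of Mbd2 varied widely between mice. Young STD mice were at 37.7, 37.4, 46.4, 33.9 and 71.2%, Aged STD mice ran from 5.81 to 54.0% with a median of 36.5%, and Aged ENR mice from 21.3 to 40.6% with a median of 31.2%. The Aged STD mice at 5.81 and 12.5% were mice 4 and 6. The age difference of -13.3 points (SE 9.14, limma adjusted p = 0.678) became 0.342 points without the libraries of low composition index, and the housing difference of -1.19 points became -14.9 points (SE 4.599, adjusted p = 0.973). Aged ENR differed from Young STD by -14.5 points (SE 5.93, adjusted p = 0.657), by -14.6 points without those libraries, by -8.05 points without Young STD mouse 5, by -9.03 points with promoters drawn within 500 bases, and by -11.0 and -20.0 points within series 27 and 37. The exon block of 10 cytosines in this body was at 40.9% ± 10.7, 26.8% ± 15.9 and 24.5% ± 10.05 in Young STD, Aged STD and Aged ENR. An intron block of 3 showed the same 2 mice at 0%, whereas the other 3 Aged STD mice with a value were at 83.8 to 100%. At chr18:70582544, an exonic cytosine 1755 bases downstream of the Mbd2-203 start, Young STD mice were at 24.7, 24.4, 22.2, 17.3 and 41.3%. Aged STD mice ran from 0 to 25%, with 4 of 7 at 0, and Aged ENR mice from 0 to 21.6%. Most aged mice were thus below the lowest Young STD mouse. The age difference was -21.4 points (SE 5.94, adjusted p = 0.76), and Aged ENR differed from Young STD by -18.1 points (SE 6.36, adjusted p = 0.776).

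Other cytosines with the smallest p of their gene lay in Tet1 and Tet2. In Tet1, chr10:62866262, an intron cytosine at -958 from the Tet1-202 start, was at 0, 6.32, 10.7, 16.7 and 0% in Young STD and at 0% in all Aged STD mice (-6.74 points, SE 2.59, limma adjusted p = 0.76). The block of 15 cytosines that holds it was at 2.21% in Young STD and 2.61% in Aged STD, a difference of 0.399 points (SE 1.42) in the other direction. In Tet2, the intron cytosine chr3:133502102 was at 91.7, 77.6, 95, 89.2 and 90.1% in Young STD, and 5 of the 6 Aged ENR mice with a value were at 100% and the other at 98.1% (10.97 points, SE 3.23, adjusted p = 0.776). All 6 were thus above every Young STD mouse. Its block of 3 cytosines did not show this, with 92.7% in Young STD and 93.8% in Aged ENR (1.06 points, SE 3.01) and 2 Aged ENR mice below every Young STD mouse. For the remaining genes, the smallest unadjusted p of a cytosine with at least 4 mice in each group ran from 0.0651 to 0.225 for age, from 0.0412 to 0.218 for housing and from 0.0166 to 0.189 for Aged ENR against Young STD. Cytosines with 3 mice in a group reached smaller unadjusted p, down to 0.00232 in Dnmt3b for age and 0.0104 in Tet3 for Aged ENR against Young STD.

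The gap between promoter and body was also compared between groups, to ask whether age or housing moved the 2 regions differently. No gene of the 7 was called (0.0145% of all genes were for age and 0% for housing). With age the largest differences in the gap were in Mbd2 (13.2 points, SE 7.65, limma adjusted p = 0.423), Tet3 (11.9, SE 5.42, adjusted p = 0.302) and Dnmt3a (8.04, SE 4.47, adjusted p = 0.401), beside a median of 3.23 points over all genes. With housing, Dnmt1 had the largest difference (-7.65 points, SE 3.29, adjusted p = 0.777), beside a median of -1.11. None passed the test. Tet1 differed by -0.426 and 0.238 points, and with age by 6.66 points as plain means. Without the libraries of low composition index, the age differences were 0.0823 points in Mbd2, 5.65 in Tet3, 3.82 in Dnmt3a and 7.85 in Dnmt1, beside a median of 1.36, and 0 of 7 genes were at an unadjusted p under 0.05 (7.48% of all genes were), against 1 with them (15.5% of all). The housing differences were then 16.3 points in Mbd2 (SE 6.38, adjusted p = 0.97) and -9.94 in Dnmt1 (SE 3.72, adjusted p = 0.97), beside a median of 0.197, with these 2 genes at an unadjusted p under 0.05 (5.002% of all genes), against 1 with all libraries (6.28% of all).

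Of 32 further genes of the same pathway, 28 promoters and 7 bodies were tested and none was called in any comparison. With age, Zbtb38, which binds methylated DNA, had the smallest p, with its promoter at 6.61% in Young STD and 2.32% in Aged STD (-4.30 points, SE 1.16, limma adjusted p = 0.363). It was followed by the promoter of Smug1, a uracil-DNA glycosylase (-3.89 points, SE 1.35, adjusted p = 0.455), and the body of Kdm2b, which binds unmethylated CpG islands (-11.7 points, SE 4.48, adjusted p = 0.491). With housing, the promoter of Ogt, a partner of the Tet enzymes, was at 18.4% in Aged STD and 28.8% in Aged ENR (10.4 points, SE 4.39, adjusted p = 0.947). The promoter of Hells followed, with a difference of 3.31 points. Between Aged ENR and Young STD the smallest p were at the bodies of Gadd45g, Kdm2b and Zbtb38 (-2.02, -6.38 and -4.26 points). Of the bodies of these genes, 6 of 7 were lower in Aged STD than in Young STD, against 74.1% of all bodies, and 5 of 7 without the libraries of low composition index, against 61.8%.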

How the data were processed

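RRBS libraries were made from the dentate gyrus of single mice. For trimming, the authors used Trim Galore 0.4.0 with cutadapt 1.8.1, for alignment to mm10 Bismark 0.16.1 and for methylation calls methylKit 1.5.2 (versions from the submitters' processing notes). The paper gives other versions of Trim Galore and Bismark. Cytosines needed at least 10 reads in a mouse, and such values in at least 3 mice per group. The deposited table gives the percent of methylated reads per cytosine and mouse, with no read numbers, so that the study's test on reads could not be run. Of the table's sample columns, 0 matched no described sample. Replicates are separate mice, grouped by GEO's labels; labelled Young ENR mice were not analysed here.

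Genes and transcription starts came from GENCODE M21. In a region or block mean, each cytosine was centred on the mean of its 3 group means, the centred values of a mouse were averaged, and the mean was added back. Regions needed at least 5 cytosines, blocks 3, and a mouse 3 values. Tests were two-sided moderated tests in limma 3.58.1 (R 4.3.3) with a trended variance, on the 2 groups compared, adjusted by Benjamini-Hochberg over all features of the table, and were tested on simulated data. The tests of promoter minus body instead fitted the mice of all 3 groups together, with 1 shared estimate of the spread. Tables were handled in Python 3.11.15 with pandas 2.3.3. For each gene and comparison, the cytosine with the smallest p among those with at least 4 mice in each group was listed, and the 3 smallest are given in full, as are the 3 smallest p among the 32 pathway genes, of which 1 result is not reported here. The genes, lists and tests were chosen with earlier results of these data known, and the blocks, the composition index and the fits without libraries of low index after the values were seen.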

Additional observations from a re-analysis of the deposited data

Results flagged for a closer look

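Within groups of 4 or more mice, 5 of the 48 promoter and body groups at these genes held 1 mouse far from the others (Dixon's gap ratio; chance gives about 1 in 20). The Dnmt3a promoter was at 11.2% in Aged ENR mouse 1, with the nearest mouse at 13.2%. The Tet3 promoter was at 5.66% in Aged STD mouse 1, with the nearest at 2.56%. The Mbd1 promoter was at 13.8% in Aged ENR mouse 6, with the nearest at 8.44%. The Mbd2 promoter was at 0.529% in Young STD mouse 5, with the nearest at 1.52%, and at 3.44% in Aged STD mouse 5, with the nearest at 1.74%. None of these mice was among the 4 libraries of low composition index.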

How the results depend on the processing

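No cytosine, region or block of the 9 genes was called for age or housing, or between Aged ENR and Young STD, under any alternative run: library series or composition index in the model, libraries of low index left out, all 3 groups in the fit, an untrended variance, plain means, and, where they apply, the arcsine scale, a difference over 10 points, other promoter widths and a minimum of 10 cytosines. Leaving out each mouse in turn gave 0 to 0 calls for each, and 7 to 7 genes for promoter against body. The count of genes lower in the promoter was 2 of 2 tested with cytosines measured in all mice, where fewer genes could be tested, and 6 to 8 otherwise. Over the whole table, cytosine calls went from 0 to 120, 26 and 92 (age, housing, Aged ENR against Young STD) with an untrended variance and to 34, 0 and 39 with all groups in the fit. With promoters drawn within 2000 bases, the Mbd2 promoter differed by -0.81 points with housing and -4.96 points from Young STD, in place of 1.74 and 1.64; that region takes in cytosines counted as body otherwise. Across the settings for regions, bodies of these genes lower with age numbered 4 of 7 (without libraries of low index) to 8 of 8 (promoters within 500 bases), and with housing 2 of 7 (replicate number as a block, or 1 library series alone) to 6 of 7 (without those libraries). Of 1195 region differences under alternatives, 125 changed sign, 114 of them with a main difference under 2 points.

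Replicate numbers did not pair the mice: the deviations of same-numbered mice correlated at -0.255 to 0.163 over 19002 regions. With the replicate number as a block, 0 cytosines, regions and blocks of these genes were called and 7 of 7 genes for promoter against body; the Dnmt1 intron block differed by -17.0 points with age and 18.4 with housing. The number of reads per value is unknown, so no stricter coverage minimum could be tried.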
